A study of Drosophila melanogaster with 4 samples.

Results

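The bone morphogenetic protein (BMP) pathway was followed in the Drosophila ovary through 10 of its genes, namely the ligands gbb and dpp, the type I receptors tkv and sax, the type II receptors put and wit, the Smads Mad and Med, and the antagonists Dad and brk. They were taken by their gene symbols from a table of 17490 genes, and all 10 are listed there. The table comes from translating ribosome affinity purification (TRAP), in which a ribosomal protein fused to GFP is expressed in chosen cells and the mRNAs carried by its ribosomes are pulled down with an anti-GFP antibody and sequenced. The soma libraries came from ovaries of tj:gal4, UAS RPL10-GFP flies, in which Gal4 is active in the somatic lineage, and the germline libraries from ovaries of Nos:Gal4Vp16, UAS:RPL10-GFP flies, in which it is active in germ cells. There were 2 libraries for the soma and 2 for the germline, each from pooled ovaries. Every library carried the GFP-tagged ribosomal protein, and no library without a driver was analysed here. The groups also differ in driver and fly genotype, which cannot be told apart from the tissue.

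BMP ligands are secreted proteins of the TGF-beta superfamily. They bind a complex of type I and type II receptor serine/threonine kinases, which phosphorylates the Smad protein Mad. Phosphorylated Mad joins the co-Smad Med, and together they enter the nucleus, where they activate genes such as Dad and, with the zinc finger protein Shn, silence others such as brk. In the germarium, ligands made by somatic niche cells keep germline stem cells undifferentiated by silencing the differentiation gene bam. In later follicles, dpp made by anterior follicle cells patterns the follicular epithelium and the eggshell.

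Levels were deposited as FPKM, a fragment number scaled to gene length and library, and 1 FPKM stands for very different numbers of reads in the 4 libraries. Without rRNA genes, 17040841 and 630253 reads were recovered from the FPKM of soma replicates 1 and 2, against 1197074 and 1315855 reads for germline replicates 1 and 2. Soma replicate 2 is therefore the least precise library, and the read number is given beside each level of the members. Soma replicate 1 also differed in its rRNA genes, which held 6.2% of its recovered reads. They held 74.2% in soma replicate 2, and 65.2% and 55.5% in germline replicates 1 and 2. The list of 13 follicle cell markers, which includes tj, was found in the germline libraries at 2.0% to 11.8% of its soma level, with a median of 7.25%. The 12 germline markers found in the table, which include nos, aub and AGO3, were in the soma libraries at 27.8% to 125% of their germline level, with a median of 41.9%. The defining markers thus follow the labels for the follicle cells, but germline transcripts are well represented in the soma libraries. Of 9 genes listed for the niche of the germarium, ptc passed the 5-fold cut-offs, with 1.00 and 1.03 FPKM (238 and 7 reads) in the soma, against 0 reads in both germline libraries. Wnt2 had 15 and 3 soma reads, against 0 reads in both germline libraries. The genes en and Lmx1a were at 0 in every library, hh had 2 reads in germline replicate 1 alone, and the other 4 genes had no more than 0.317 FPKM in any library. Muscle markers varied within each group. The summed level of 7 of them was 4.0 and 18.7 FPKM in soma replicates 1 and 2, against 15.5 and 1.89 FPKM in germline replicates 1 and 2.

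The somatic libraries held the ligand gbb and the repressor brk, for which no read was recovered in the germline, while both type I receptors, both type II receptors, both Smads and Dad were found in soma and germline. With limma, which fits a linear model to each gene and moderates its variance across genes, 2 of the 10 members passed the cut-offs of a more than 5-fold difference and an unadjusted p under 0.05 in favour of the soma. These were gbb and brk, and over all 8823 genes tested the same cut-offs were passed by 9.41%. The same members, gbb and brk, had an adjusted p under 0.05, which 8.64% of all genes tested reached in favour of the soma. Without germline replicate 1 or without germline replicate 2, both members stayed past the 5-fold cut-offs but had limma adjusted p-values of 0.26 (gbb and brk in either fit), and no gene of the whole table then had an adjusted p under 0.05. No member passed either rule in favour of the germline, where 1.08% and 3.59% of all genes tested did. At an unadjusted p under 0.05 and any fold, limma called 4 members in favour of the soma (gbb, brk, tkv and wit), beside 16.8% of all genes tested, and none in favour of the germline, beside 11.0%. Both soma values lay above both germline values for 6 members (gbb, dpp, tkv, sax, wit and brk), an arrangement seen for 29.6% of all genes tested, and the groups overlapped for the other 4. The median log2 fold change was 0.97 for the 10 members and 0.67 for the 8 receptors and effectors, against 0.04 over all genes tested. In such pull-downs, fewer cells of a type and less RNA per cell cannot be told apart.

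**Figure D1:**
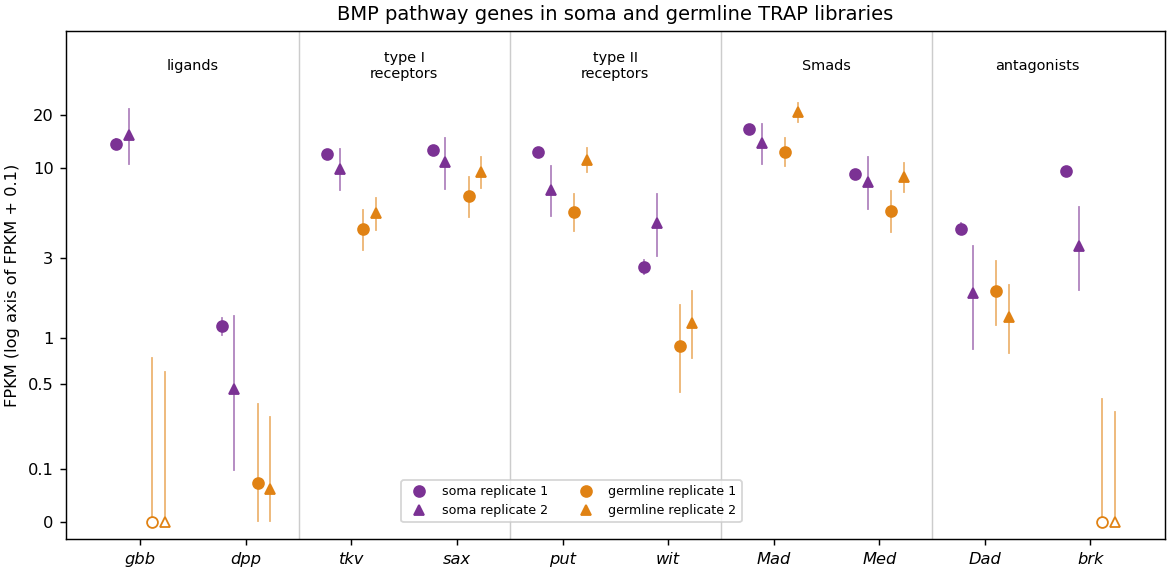
FPKM of the 10 BMP pathway genes in each library, on a log axis of FPKM + 0.1, with soma libraries in purple and germline libraries in orange. Bars are exact 95% Poisson intervals of the recovered reads and open symbols are libraries with 0 reads. The ligand gbb and the repressor brk have no germline reads, and put, Mad, Med and Dad overlap between soma and germline.

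The ligand gbb (glass bottom boat) is a single gene of the annotation on chromosome 2R, from 23851562 to 23853247 of BDGP6.54, with no other gene overlapping it. Its level was 13.8 FPKM (995 reads) and 15.4 FPKM (32 reads) in soma replicates 1 and 2, against 0 reads in both germline libraries. The soma replicates agree within counting error, and gbb was the second most strongly represented member in the soma after Mad, whose range it overlapped. Against a floor of 3 reads in each germline library, the mean of the soma libraries was at least 26.6-fold higher. The bound was 25.1-fold with soma replicate 1 alone and 28.1-fold with soma replicate 2 alone. The limma log2 fold change was 7.19 (standard error (SE) 0.77, adjusted p = 0.0034), a size that depends on the pseudocount of 0.1 FPKM since the germline is at 0.

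The ligand dpp (decapentaplegic), on chromosome 2L from 2428372 to 2459823, was the lowest member in the soma. It had 1.18 FPKM (264 reads) and 0.467 FPKM (3 reads) in soma replicates 1 and 2, against 0.0653 and 0.0529 FPKM in germline replicates 1 and 2, which is 1 read each. Both soma values lie above both germline values, but 3 of the 4 rest on 3 reads or fewer. From the pooled reads, dpp was 19.9 times as abundant in the soma as in the germline, with an exact 95% counting interval of 5.44 to 164.8 that does not cover the spread between replicates. Of the 267 soma reads, 264 came from replicate 1. With soma replicate 2 alone the ratio was 7.99, with an interval of 0.915 to 95.6 that includes equality. The limma log2 fold change was 2.42 (SE 1.14, 95% interval -0.29 to 5.13, unadjusted p = 0.072, adjusted p = 0.22), so dpp missed the cut-offs in p. It passed them without soma replicate 2, with a log2 fold change of 3.01 (limma unadjusted p = 0.0022, adjusted p = 0.035). Limma-voom on the recovered reads also placed it past the cut-offs, with a log2 fold change of 3.68 (unadjusted p = 0.010, adjusted p = 0.053). Within the soma, gbb exceeded dpp 11.7-fold in replicate 1 (exact 95% counting interval 10.2 to 13.4) and 33.0-fold in replicate 2 (10.3 to 168.4). Both soma libraries therefore held more gbb than dpp mRNA.

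The type I receptors tkv (thickveins) and sax (saxophone) are the kinases that phosphorylate Mad. The level of tkv, on chromosome 2L from 5219000 to 5271384, was 11.9 FPKM (2269 reads) and 9.88 FPKM (54 reads) in soma replicates 1 and 2, against 4.45 FPKM (58 reads) and 5.47 FPKM (88 reads) in germline replicates 1 and 2. Its means were 10.9 ± 1.45 FPKM for soma and 4.96 ± 0.723 FPKM for germline (SD, n = 2 each), and the groups did not overlap. The limma log2 fold change was 1.12 (SE 0.38, 95% interval 0.21 to 2.03, unadjusted p = 0.023, adjusted p = 0.11). It stayed below the 5-fold cut-off and above an adjusted p of 0.05, although limma-voom on the recovered reads gave an adjusted p of 0.031 (log2 fold change 1.17). The level of sax, on chromosome 2R from 7806484 to 7810067, was 12.7 FPKM (1560 reads) and 10.8 FPKM (38 reads) in soma replicates 1 and 2, against 6.89 FPKM (58 reads) and 9.43 FPKM (98 reads) in germline replicates 1 and 2. These groups also did not overlap, although the gap between the lower soma and the higher germline value was small beside the counting error of soma replicate 2. The limma log2 fold change of sax was 0.53 (SE 0.36, 95% interval -0.32 to 1.38, adjusted p = 0.39). In its exons, tkv shares 158 bases with the gene CR14033 on the other strand, which had 2.71 and 8.42 FPKM in the soma, against 10.2 and 15.9 FPKM in the germline. Whether reads were counted by strand is not given in the sources used here.

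The type II receptors put (punt) and wit (wishful thinking) also bind activin-like ligands. The level of put, on chromosome 3R from 14619030 to 14625703, was 12.3 FPKM (2111 reads) and 7.48 FPKM (37 reads) in soma replicates 1 and 2, against 5.6 FPKM (66 reads) and 11.1 FPKM (162 reads) in germline replicates 1 and 2. The groups overlapped, and the replicates of each group were further apart than the group means, 9.9 FPKM for soma and 8.4 FPKM for germline. The limma log2 fold change was 0.27 (SE 0.47, 95% interval -0.85 to 1.40, adjusted p = 0.73), with -0.08 when soma replicate 1 was left out and -0.22 when germline replicate 1 was left out. The level of wit, on chromosome 3L from 4064152 to 4071717, was lower in each library, with 2.67 FPKM (484 reads) and 4.81 FPKM (25 reads) in soma replicates 1 and 2, against 0.888 FPKM (11 reads) and 1.24 FPKM (19 reads) in germline replicates 1 and 2. Its groups did not overlap, and its log2 fold change was 1.68 (SE 0.68, 95% interval 0.05 to 3.31, limma unadjusted p = 0.045, adjusted p = 0.17), the largest estimate among the 4 receptors. Of the exons of wit, 400 bases are shared with dib on the other strand. This gene of ecdysone synthesis had 1.64 and 1.64 FPKM in the soma, against 0 and 0.14 FPKM in the germline, and the part of such reads in the value of wit was not tested.

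Mad, the Smad phosphorylated by the receptors, was the most strongly represented of the 10 genes in the germline, and its range overlapped that of gbb at the top of the soma order. On chromosome 2L from 3146056 to 3159643, it had 16.7 FPKM (2444 reads) and 13.8 FPKM (58 reads) in soma replicates 1 and 2, against 12.4 FPKM (124 reads) and 20.9 FPKM (258 reads) in germline replicates 1 and 2. Both soma values lay between the germline values. The limma log2 fold change of Mad was -0.08 (SE 0.36, 95% interval -0.93 to 0.76, adjusted p = 0.90). A soma excess of more than 5-fold lies outside the interval. For a germline excess the interval cannot decide, because the 12 germline markers also stayed below a 5-fold difference. The strongest of them was bcd, with a log2 fold change of -1.88. For Mad, the sign turned without soma replicate 2 (0.05) and without germline replicate 2 (0.29). The co-Smad Med (Medea), on chromosome 3R from 31611046 to 31615375, had 9.22 FPKM (1355 reads) and 8.29 FPKM (35 reads) in soma replicates 1 and 2, against 5.66 FPKM (57 reads) and 8.86 FPKM (110 reads) in germline replicates 1 and 2. The groups overlapped, with a log2 fold change of 0.30 (SE 0.40, 95% interval -0.65 to 1.25, limma adjusted p = 0.65) and of -0.02 without germline replicate 1. On the other strand, CycG shares 331 exon bases with Med and was far higher, at 78.0 and 95.2 FPKM in the soma, against 39.7 and 48.4 FPKM in the germline. The part of such reads in the value of Med was not tested.

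The antagonists Dad (Daughters against dpp) and brk (brinker) are both under the control of the pathway, since Dad is an inhibitory Smad activated by signalling and brk is a repressor of BMP target genes that signalling silences. They stood apart in the germline. Dad, on chromosome 3R from 17054007 to 17070408, had 4.48 FPKM (751 reads) and 1.87 FPKM (9 reads) in soma replicates 1 and 2, against 1.92 FPKM (22 reads) and 1.34 FPKM (19 reads) in germline replicates 1 and 2. The lower soma value fell between the germline values, and the limma log2 fold change was 0.82 (SE 0.71, 95% interval -0.87 to 2.5, adjusted p = 0.50). Repressor brk, on chromosome X from 7307939 to 7311132, had 9.61 FPKM (1317 reads) and 3.55 FPKM (14 reads) in soma replicates 1 and 2, against 0 reads in both germline libraries. Against the floor of 3 reads per germline library, its soma mean was at least 22.7-fold higher, with bounds of 33.2-fold for soma replicate 1 and 12.3-fold for soma replicate 2. Its limma log2 fold change was 5.90 (SE 0.96, adjusted p = 0.013). As for gbb, the size depends on the pseudocount, since the germline is at 0. In the soma, brk exceeded Dad 2.14-fold in replicate 1 (exact 95% counting interval 1.96 to 2.35) and 1.90-fold in replicate 2 (0.767 to 4.98), so the ratio of the antagonists was close in the soma replicates while their levels differed.

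**Figure D2:**
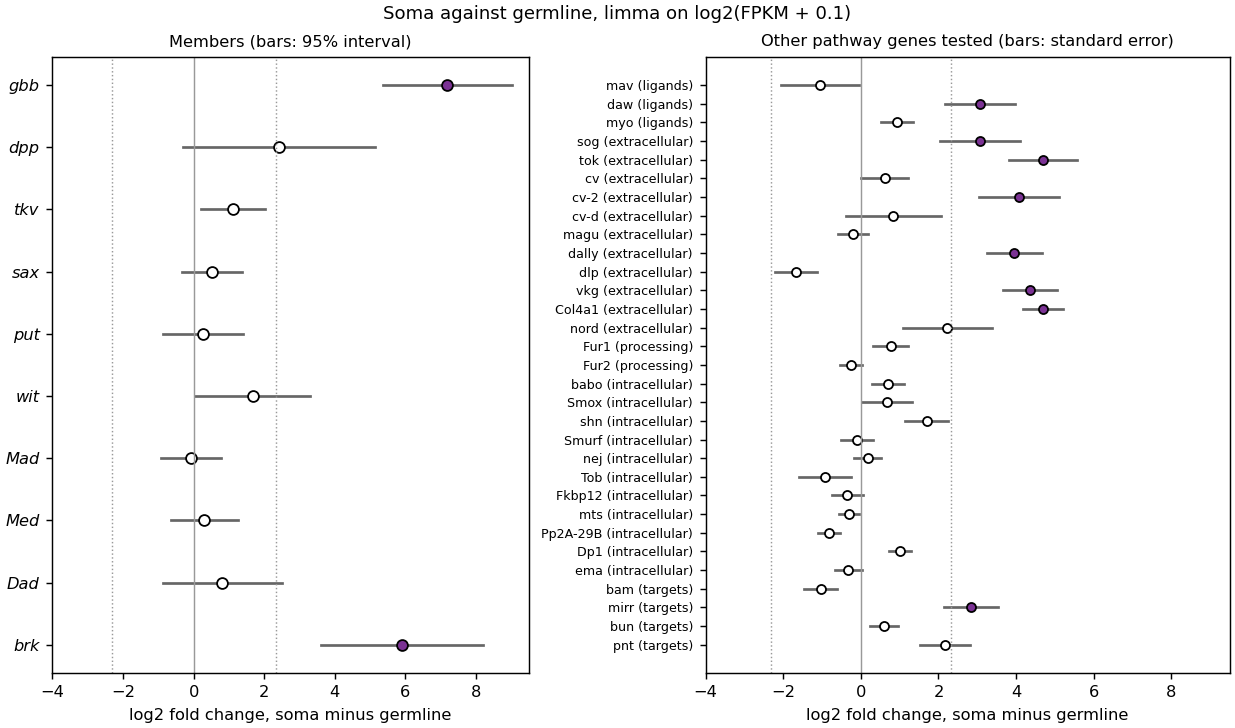
Log2 fold changes from limma on log2(FPKM + 0.1), soma minus germline, for the 10 members on the left with 95% intervals and for the 31 other pathway genes tested on the right with standard errors. Filled points passed a more than 5-fold difference (dotted lines) at an unadjusted p under 0.05, and they are gbb and brk among the members and 8 of the 31 other genes.

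Ligands and the remaining members were next set against each other inside each library. Through the pseudocount, such differences still depend in part on the scaling between libraries. On log2(FPKM + 0.1), the mean of gbb and dpp minus the mean of the 8 receptors and effectors was -1.07 and -1.14 in soma replicates 1 and 2, against -4.38 and -4.82 in germline replicates 1 and 2. The ligands thus lay further below their receptors and effectors in both germline libraries than in either soma library. The size of the germline value depends on the pseudocount, because gbb is at 0 and dpp at 1 read there.

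Ratios between members that were read in every library were less affected by low counts. Thickveins stood at 0.94 and 0.918 times the FPKM of sax in soma replicates 1 and 2, against 0.646 and 0.58 times in germline replicates 1 and 2. The exact 95% counting intervals of the germline ratios, 0.441 to 0.947 and 0.43 to 0.782, lay below equality, while those of soma replicates 1 and 2, 0.881 to 1.00 and 0.595 to 1.43, reached it. The interval of germline replicate 1 overlapped both soma intervals, and that of germline replicate 2 overlapped that of soma replicate 2. Mad stood at 1.40 and 1.40 times tkv in soma replicates 1 and 2, against 2.78 and 3.81 times in germline replicates 1 and 2. The intervals of the germline ratios, 2.02 to 3.86 and 2.98 to 4.91, lay above that of soma replicate 1, 1.32 to 1.48. That of soma replicate 2, 0.946 to 2.06, met the lower edge of the interval of germline replicate 1. The ratio of Mad to tkv was thus higher in both germline libraries than in either soma library. The ratio of put to wit was 4.58 and 1.56 in soma replicates 1 and 2, against 6.30 and 8.96 in germline replicates 1 and 2. It differed about as much between the soma replicates as between the groups. These are 3 of 8 ratios computed, chosen for display after their values were seen, and with 2 libraries a group no 2-sided exact permutation test can give a p below 0.333.

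**Figure D3:**
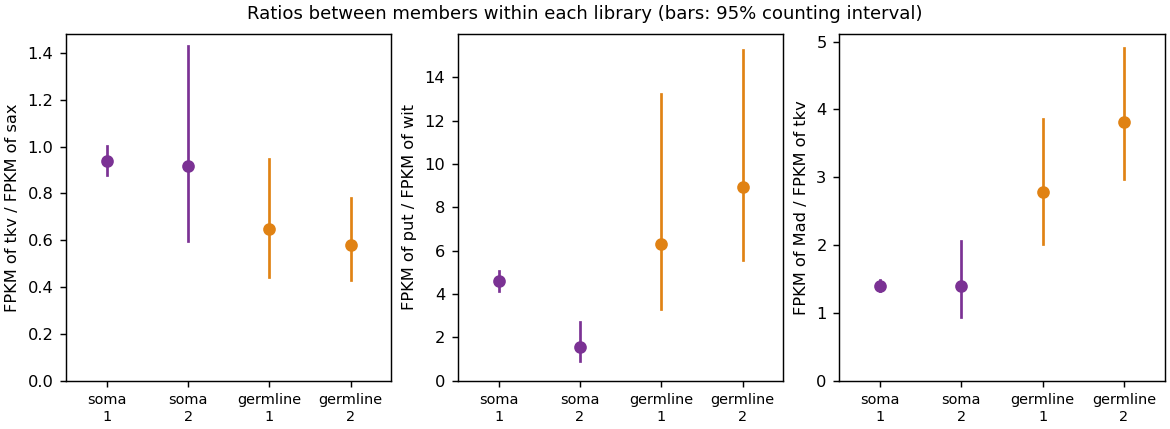
FPKM ratios of tkv to sax, put to wit and Mad to tkv in each library, with exact 95% counting intervals of the recovered reads. The ratio of tkv to sax is 0.918 or more in the soma and 0.646 or less in the germline, and the ratio of Mad to tkv is 1.40 in the soma and at least 2.78 in the germline.

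The order of the members by mean FPKM in the soma was Mad, gbb, sax, tkv, put, Med, brk, wit, Dad and dpp. Neighbours in this order overlapped in their ranges over the soma libraries, except that gbb lay above sax and Dad above dpp. In the germline the order was Mad, put, sax, Med, tkv, Dad, wit and dpp, with gbb and brk at 0 reads. There Mad lay above put, and put, sax and Med overlapped. Below them came tkv, then Dad and wit, whose values of 11 to 22 reads overlap in counting error, and then dpp. Among the genes tested, Mad had a higher mean than 71.7% of them in the soma and 74.6% of them in the germline, while dpp stood above 15.4% in the soma, against 8.34% in the germline.

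The germline level of each member was also expressed as a percent of its soma level and set beside the marker lists. For the 4 receptors, the Smads and Dad, this share was 28.5% (wit) to 109% (Mad), while the 13 follicle cell markers lay between 2.0% and 11.8%. All 7 of these members therefore lay above the range of the follicle cell list. Conversely, their soma mean was 91.7% (Mad) to 351% (wit) of their germline mean, and that of the germline markers was 27.8% to 125%. In the germline list, egl (125%) and BicD (103%) were the highest, followed by grk (83.7%). Mad, put and Med fell inside the range of the list only through egl and BicD. The part of germline RNA in the soma values of the 7 members was not tested. For dpp the share was 7.18%, inside the range of the follicle cell list. The floor of 3 reads in each germline library corresponds to 3.76% of the soma mean for gbb and 4.4% for brk, both below the median of 7.25% of the follicle cell list.

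**Figure D4:**
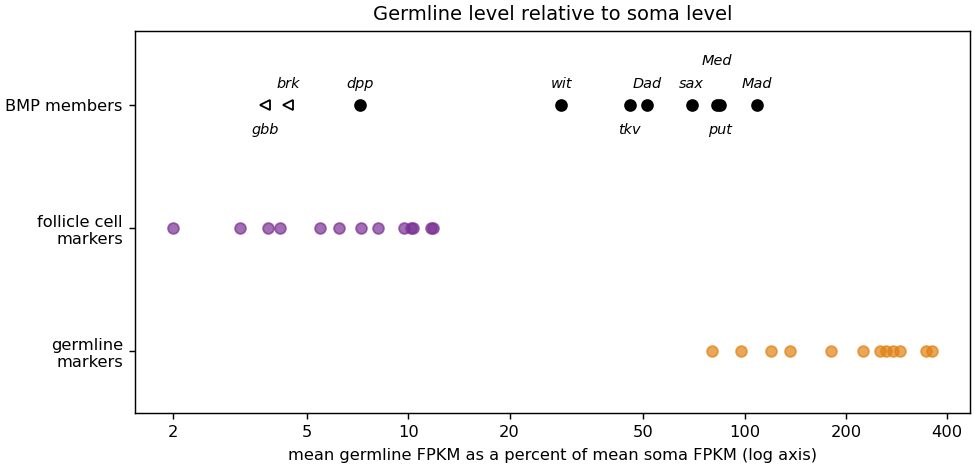
Mean germline FPKM as a percent of mean soma FPKM, on a log axis, for the 10 members, 13 follicle cell markers (purple) and 12 germline markers (orange). Open triangles give the floor of 3 reads in each germline library for gbb and brk, which had no germline reads. The follicle cell markers lie between 2.0% and 11.8%, as does dpp at 7.18%, and the receptors, Smads and Dad lie at 28.5% or more.

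A wider list of 44 pathway genes, of which 43 were found in the table and 31 passed the filter of a mean of 0.1 FPKM, was read in the same way. Of the 31, 8 passed the 5-fold cut-offs in favour of the soma and none in favour of the germline, beside 9.41% and 1.08% of all genes tested with limma. Their median log2 fold change was 0.70. None of the 12 germline markers passed the 5-fold cut-offs in favour of the germline either. Of the 8 genes, 6 had an adjusted p under 0.05, beside 8.64% of all genes tested in favour of the soma. None of these 6 kept it in any of the 4 limma fits that leave out a library. The count depended on the libraries used, with 3 genes past the cut-offs without soma replicate 2 and 5 without soma replicate 1. Col4a1 and dally passed in each of the 4 fits that leave out a library. Without soma replicate 1, mav, a TGF-beta ligand with 696 and 2 reads in soma replicates 1 and 2, passed in favour of the germline.

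Extracellular regulators of BMP ligands made up most of these genes, with 6 of the 11 tested past the cut-offs in the soma, beside 9.41% of all genes tested. This count was 3 when soma replicate 2 was left out and 4 when soma replicate 1 was. Col4a1, a chain of type IV collagen, which binds Dpp and is a main component of basement membranes, had the highest mean of this list, with 48.4 and 39.2 FPKM in the soma, against 2.65 and 0.939 FPKM in the germline. Its log2 fold change was 4.69 (SE 0.52, adjusted p = 0.0037 by limma). The other collagen IV chain, vkg, had 32.4 and 26.3 FPKM in the soma, against 2.88 and 0.594 FPKM in the germline (log2 fold change 4.35, SE 0.70, limma adjusted p = 0.012). For the collagen chains both soma libraries lay far above both germline libraries. Collagen IV is also made by fat body and hemocytes. The 5 hemocyte markers summed to 0.133 and 0.136 FPKM in the soma, against 0.0571 and 0 FPKM in the germline, and the 5 fat body markers to 0.657 and 2.41 FPKM in the soma, against 0.405 and 0.703 FPKM in the germline. Of these lists, 2 hemocyte and 3 fat body markers were at 0 in every library. The part of either cell type in the collagen values was not tested.

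The glypican dally, a cell surface proteoglycan that binds Dpp, had 5.80 and 13.4 FPKM in the soma, against 0.607 and 0.369 FPKM in the germline (log2 fold change 3.95, SE 0.71, limma adjusted p = 0.017). Its paralogue dlp, named here after its values were seen, ran the other way, with 2.38 and 1.51 FPKM in the soma, against 5.79 and 6.75 FPKM in the germline. The groups of dlp did not overlap, but it passed neither rule (log2 fold change -1.67, SE 0.54, limma adjusted p = 0.096). The metalloprotease gene tok, a relative of tolloid, had 5.52 and 9.74 FPKM in the soma, against 0.0629 and 0.408 FPKM in the germline. The log2 fold change of tok was 4.69 (SE 0.87, adjusted p = 0.019 by limma).

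The BMP-binding protein gene cv-2 had 3.6 and 1.87 FPKM in the soma, against 0.157 and 0 FPKM in the germline, from 2 and 0 reads. Its log2 fold change was 4.07 (SE 1.03, adjusted p = 0.049 by limma). The ligand antagonist sog had 1.14 and 2.64 FPKM in the soma, against 0.0528 and 0.214 FPKM in the germline, from 1 and 5 reads. It passed the cut-offs with a log2 fold change of 3.07 (SE 1.03, limma unadjusted p = 0.021) but not the adjusted rule (adjusted p = 0.11). For both genes every soma value lay above every germline value, on few germline reads.

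Among the other ligands, daw, an activin-like ligand, had 1.87 and 6.46 FPKM in the soma, against 0.417 and 0.253 FPKM in the germline. It passed the 5-fold cut-offs (log2 fold change 3.07, SE 0.91, limma unadjusted p = 0.012, adjusted p = 0.077). The most strongly represented of these ligands was myo, with 8.29 and 12.1 FPKM in the soma, against 4.37 and 6.11 FPKM in the germline (log2 fold change 0.94, limma adjusted p = 0.20). No read was recovered for scw, the ligand that pairs with Dpp in the early embryo, in any library.

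None of the 2 ligand-processing proteases, Fur1 and Fur2, and none of the 11 intracellular genes passed either rule. The intracellular gene with the highest mean over the 4 libraries was Fkbp12, which encodes a binding partner of type I receptors, with 212 and 108 FPKM in the soma, against 217 and 169 FPKM in the germline (log2 fold change -0.34, limma adjusted p = 0.62). Of the processing genes, Fur2 was the higher, with 27.5 and 40.3 FPKM in the soma, against 39.7 and 39.7 FPKM in the germline (log2 fold change -0.25, limma adjusted p = 0.60). The co-repressor gene shn, named here after its values were seen, had 7.24 and 7.08 FPKM in the soma, against 1.49 and 3.08 FPKM in the germline (log2 fold change 1.69, limma unadjusted p = 0.019, adjusted p = 0.098). All 11 intracellular genes had reads in all 4 libraries, as Mad and Med did.

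Of 11 listed target genes found in the table, 5 were at 0 in every library and 4 passed the filter. Of these, mirr, a homeobox gene of the Iroquois family, passed both rules, with 5.42 and 5.42 FPKM in the soma, against 0.437 and 0.992 FPKM in the germline (log2 fold change 2.85, SE 0.69, limma adjusted p = 0.043). It no longer passed the 5-fold cut-offs without soma replicate 1, without soma replicate 2, with a pseudocount of 1 FPKM or with quantile normalization. The target gene with the highest mean was bun, with 14.4 and 15.6 FPKM in the soma, against 7.60 and 12.7 FPKM in the germline (log2 fold change 0.60, limma adjusted p = 0.34). The germline differentiation gene bam, named here after its values were seen, had 5.5 and 3.85 FPKM in the soma, against 11.0 and 8.30 FPKM in the germline (log2 fold change -1.03, limma unadjusted p = 0.044, adjusted p = 0.17). Both germline values of bam lay above both soma values, as for 25.8% of all genes tested. Its soma mean was 48.6% of its germline mean, inside the 27.8% to 125% of the germline markers. The part of germline RNA in the soma values of bam was not tested, and no whole read numbers were recovered for it.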

How the data were processed

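The authors deposited FPKM for 17490 genes in 4 libraries, with decimal commas, read as decimal points. Their processing notes name cutadapt, FastQC, HISAT2 and dm6; the counting tool and annotation are not given in the sources used here. The 4 columns were mapped to samples by name. All values were numbers of at least 0. FPKM were multiplied by exon length (Ensembl release 115, BDGP6.54, in dm6 coordinates) and divided by a constant for each library. Of the 10518 genes above 0, 96.6% then had whole reads throughout (within 0.03 reads, up to 1000 reads), all 10 members included. Med was matched to the annotation by symbol, since its identifier differs there. Counting intervals and the floor of 3 reads cover counting error only.

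The groups were compared with limma 3.58.1 (R 4.3.3) on log2(FPKM + 0.1) for the 8823 genes whose mean reached 0.1 FPKM, with an eBayes trend, without a replicate block, and with Benjamini-Hochberg adjustment over all genes tested. The cut-offs, a 5-fold difference and an unadjusted p under 0.05, are those of the study. Fold changes on this scale understate low genes. The test was run on simulated data with known changes, where limma also called some unchanged genes, more than limma-voom did. The alternatives were other pseudocounts, filters, scalings, variance models and p rules, a replicate block, limma-voom on recovered reads and each library left out. Of the scalings, median ratio scaling had factors of 1.0181 to 1.0195 and so left the values almost as deposited. Where 1 library remains in a group, it is assumed to vary like the other group. Members and lists were chosen with earlier results of these data known. The named genes are all members and, of 44 other pathway genes, those past either rule and the highest of each list. Beyond this rule, dlp, shn, bam, mav, scw and Fur1 are also named. The marker genes vas and wupA and the target gene br were not analysed here. P-values measure the spread between libraries, whose separate origin the labels do not detail. For gbb and brk both germline values are 0, so only the soma libraries add spread of their own. Their p-values therefore also depend on the pseudocount. Python 3.11.15, numpy 2.4.6, pandas 2.3.3, scipy 1.17.1 and matplotlib 3.10.9 were used.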

Additional observations from a re-analysis of the deposited data

How the results depend on the processing

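By the 5-fold cut-offs, the calls of gbb and brk held under every alternative run, and no other member but dpp passed under any. At an adjusted p under 0.05 both held except without germline replicate 1 or 2, where no gene of the table passed, tkv also passed with limma-voom and dpp without soma replicate 2. Of the other pathway genes, 0 to 10 passed the adjusted rule in favour of the soma over the alternatives, counts added after seeing the data. The log2 fold change of dpp passed with no filter on low values (2.42), with eBayes without a trend (2.42) and with limma-voom on recovered reads (3.68). With each library left out, log2 fold changes ranged from 7.11 to 7.28 for gbb, 1.83 to 3.01 for dpp, 0.97 to 1.27 for tkv, 0.31 to 0.75 for sax, -0.22 to 0.76 for put, 1.27 to 2.09 for wit, -0.46 to 0.29 for Mad, -0.02 to 0.62 for Med, 0.21 to 1.43 for Dad and 5.19 to 6.60 for brk. The values below 0 for put (-0.08 without soma replicate 1, -0.22 without germline replicate 1) and Med (-0.019 without germline replicate 1), and those above 0 for Mad (0.05 without soma replicate 2, 0.29 without germline replicate 2), reversed the sign of the fit with all libraries. The count of members past the cut-offs was 2 or 3.

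Over all genes tested, 830 passed in favour of the soma and 95 in favour of the germline. A pseudocount of 1 FPKM gave 428 and 30. The germline count was 242 with quantile normalization, 146 with the replicate block, 152 with a crossed replicate block (added after seeing the data, since same-numbered libraries of genes at 10 FPKM or more deviated with a correlation of -0.19, and of -0.07 over all genes tested) and 317 with an adjusted p under 0.05 at any fold. Leaving out 1 library gave 675 to 911 in the soma and 69 to 313 in the germline, the highest without soma replicate 1. The same-numbered libraries share only a number, and the replicate block changed no member's call. The count of other pathway genes past the cut-offs was 4 with a pseudocount of 1 FPKM, 5 with quantile normalization and 3 to 7 with a library left out, and that of extracellular genes was 3 to 6. These counts under alternatives were chosen after seeing the data.

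The ligand minus receptor and effector difference was -0.80, -0.64, -2.09 and -2.44 in soma replicates 1 and 2 and germline replicates 1 and 2 with a pseudocount of 1 FPKM. With 0.01 FPKM it was -1.25 in soma replicate 2 and -6.15 and -6.67 in the germline replicates. With quantile normalization it was -1.29 and -1.43 in the soma replicates and -4.25 in germline replicate 2. The cause of these moves was not tested. Depth limits dpp most, since soma replicate 2 and the germline libraries hold 3 reads or fewer of it.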
